A study of Mus musculus with 8 samples.

Results

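ATP-binding cassette (ABC) transporters and organic anion transporting polypeptides (Slco genes) were followed in NMuMG cells, a mouse mammary gland epithelial line grown as the subclone NMuMG/E9. A gene was included when its probe set carried exactly 1 symbol and that symbol began with Abca to Abcg or Slco followed by a digit, and 63 of the 19937 genes measured met this rule. They were 16 Abca, 9 Abcb, 10 Abcc, 3 Abcd, 1 Abce, 3 Abcf, 6 Abcg and 15 Slco genes. Each was represented by 1 probe set, and only Abcb5 had more than 1 to choose from.

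RNA had been hybridised to 8 Affymetrix whole-transcript arrays, 2 for each of 4 groups. The groups were cells transfected with siRNA against Klf4 (siKlf4) and given 2 ng/ml TGFβ for 2 days, cells transfected with control siRNA (siControl) and given the same TGFβ, siKlf4 cells without TGFβ, and siControl cells without TGFβ. Every group therefore came from transfected cells, and the siKlf4 reagent was a pool of siRNAs. Whether the replicate arrays stem from independent transfections is not stated, and a p-value here covers only array-to-array spread, possibly of technical origin.

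ABC proteins bind and split ATP to drive lipids, drugs, glutathione conjugates and other cargo across membranes, mostly out of the cytosol. Slco proteins need no ATP and carry bile acids, steroid conjugates, prostaglandins and thyroid hormones, mostly into the cell. Uptake by Slco carriers and export by Abcc, Abcb1 and Abcg2 pumps together set how much of a drug or hormone conjugate a cell holds, and Abcg2 is known in the mammary gland for moving vitamins and drugs into milk. TGFβ drives NMuMG cells towards a mesenchymal state, and Klf4 is a zinc finger transcription factor of epithelia that binds GC-rich and CACCC sequences.

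Klf4 itself was read first. Its log2 value was 7.43 and 7.24 in siKlf4 cells with TGFβ, 7.46 and 7.46 in siControl cells with TGFβ, 8.03 and 7.91 in siKlf4 cells without TGFβ, and 8.60 and 8.43 in siControl cells without TGFβ. Without TGFβ the arrays labelled siKlf4 were lower by a log2 difference of -0.54 (limma, adjusted p = 0.00369). With TGFβ the difference was -0.13 (adjusted p = 0.444), so a lower Klf4 signal was not shown on this probe set there. The paper states that the siKlf4 pool strongly reduced Klf4 in NMuMG cells, read as protein by immunoblot with and without TGFβ. It also lists Klf4 mRNA of siControl and siKlf4 NMuMG cells, with and without TGFβ, as measured by quantitative RT-PCR. The array result with TGFβ thus stands beside an RNA measurement of the paper as well as a protein one. TGFβ lowered Klf4 in siControl cells by a log2 difference of -1.05 (adjusted p = 0.000357). Because the arrays do not show the depletion with TGFβ, the groups are named below by their labels. Every siKlf4 direction is that of the arrays labelled siKlf4.

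The cell type was checked against marker lists. Of 7 luminal epithelial genes, 5 lay above the median gene (log2 5.6), with Krt8, Krt18, Krt19 and Cdh1 averaging 13.24, 12.52, 12.04 and 10.50, whereas Epcam and Cldn7 averaged only 3.98 and 4.40. None of 4 adipocyte and none of 4 endothelial markers lay above the median gene, 1 of 4 measured leukocyte markers did (Cd68), and 2 of 5 fibroblast and 2 of 5 basal markers did. Replicate arrays correlated across genes with r between 0.992 and 0.9951. In bulk RNA, fewer cells of a type and less RNA per cell cannot be told apart.

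The promoters of 5 genes that carry the results are printed first. They are 3 genes that were lower in the arrays labelled siKlf4 in both settings (Abcc2, Abcb1a, Abcb6) and the pair that passed in opposite directions with and without TGFβ (Abcb1b, Slco1a5). Abcd3, also lower in both settings, is in the reference table too and is not shown. Abcc3, lower in both settings, and Slco3a1, higher in both, are among the 12 members without a promoter there, so theirs could not be read. Each run is 300 bases, 250 before to 50 after a transcription start, from RefSeq for GRCm38.p6. Capitals mark matches, on either strand, to the KLF-type motifs GGGNGGG and CACCC and to the antioxidant response element TGACNNNGC, the site of the oxidative stress factor Nrf2. CCCACCC holds both KLF-type motifs at once.
Abcc2 (chr19:43782058-43782357, plus strand): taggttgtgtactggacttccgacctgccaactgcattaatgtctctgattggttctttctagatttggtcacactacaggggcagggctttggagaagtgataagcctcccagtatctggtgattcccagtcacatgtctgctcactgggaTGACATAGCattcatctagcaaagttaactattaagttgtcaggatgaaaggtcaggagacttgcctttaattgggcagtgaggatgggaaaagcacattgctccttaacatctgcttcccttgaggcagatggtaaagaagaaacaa
Abcb1a (chr5:8566841-8567140, plus strand): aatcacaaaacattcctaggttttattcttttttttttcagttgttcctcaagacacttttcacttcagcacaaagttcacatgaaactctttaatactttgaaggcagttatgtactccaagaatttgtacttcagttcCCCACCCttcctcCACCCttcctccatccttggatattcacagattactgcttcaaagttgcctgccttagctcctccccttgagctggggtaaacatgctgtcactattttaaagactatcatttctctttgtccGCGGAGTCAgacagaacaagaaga
Abcb1b (chr5:8797897-8798196, plus strand): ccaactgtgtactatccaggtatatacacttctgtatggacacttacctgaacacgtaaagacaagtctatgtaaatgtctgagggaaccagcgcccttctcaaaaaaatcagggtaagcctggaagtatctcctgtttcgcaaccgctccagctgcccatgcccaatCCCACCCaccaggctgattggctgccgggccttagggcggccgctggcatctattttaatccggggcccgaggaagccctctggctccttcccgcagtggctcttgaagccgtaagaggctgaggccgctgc
Abcb6 (chr1:75180343-75180642, minus strand): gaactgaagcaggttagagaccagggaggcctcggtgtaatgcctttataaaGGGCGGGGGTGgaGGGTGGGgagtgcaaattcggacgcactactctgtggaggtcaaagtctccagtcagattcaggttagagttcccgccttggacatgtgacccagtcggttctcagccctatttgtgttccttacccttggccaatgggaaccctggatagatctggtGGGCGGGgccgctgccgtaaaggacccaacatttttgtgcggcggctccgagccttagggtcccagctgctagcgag
Slco1a5 (chr6:142322932-142323231, minus strand): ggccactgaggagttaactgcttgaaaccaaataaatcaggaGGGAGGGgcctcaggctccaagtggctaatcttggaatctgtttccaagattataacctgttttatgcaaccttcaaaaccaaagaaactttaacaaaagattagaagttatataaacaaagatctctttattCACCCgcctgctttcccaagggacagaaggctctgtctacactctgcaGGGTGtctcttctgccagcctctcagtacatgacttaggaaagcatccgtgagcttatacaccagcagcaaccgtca

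Abcc2 and Abcb1a hold 1 antioxidant response element match each, the first base 98 bases before the start in Abcc2 (position -98) and at position 26 after it in Abcb1a. Abcb6 holds 3 GGGNGGG matches, at -198, -185 and -27. Abcc2 has neither KLF-type motif in this window, which says only that these letters are not in these bases. Slco1a5 has a second annotated start, which is not shown. Over all members the table held 62 promoters of 51 genes. GGGNGGG occurred in 31 of them (50%, against 48.1% of all 32851 promoters), CACCC in 38 (61.3%, against 57.5%), TGACNNNGC in 10 (16.1%, against 12.4%) and the SMAD-type motif CAGAC in 24 (38.7%, against 49.6%). A match is a description of letters and not a bound site.

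Across the members, differences between arrays labelled siKlf4 and siControl arrays were no more frequent than over all genes. With TGFβ, 1 member was higher and 9 were lower in the arrays labelled siKlf4 at an adjusted p under 0.05, which is 15.9% of the 63 beside 24.2% of all genes (12.3% higher and 11.9% lower). Without TGFβ, 5 were higher and 6 lower, which is 17.5% beside 19.7% of all genes (9.98% higher and 9.71% lower). The 5 higher members became 2 or 3 when any 1 of the 8 arrays was left out, and the 1 higher with TGFβ became 2 without either siKlf4 array without TGFβ. The median log2 difference was -0.10 over the members and -0.03 over all genes with TGFβ, and -0.04 over the members and 0.00 over all genes without it. An unadjusted p under 0.05 was reached by 15 members with TGFβ and by 14 without. Dim probe sets rarely passed: 38 members lay at or below the median gene, and 35 of the 47 members that passed in no comparison were among them. Of the 25 members above the median gene, 8 passed with TGFβ (32%, against 42.4% of genes above the median) and 9 without it (36%, against 34.9%). The members that passed are given by role.

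**Figure D1:**
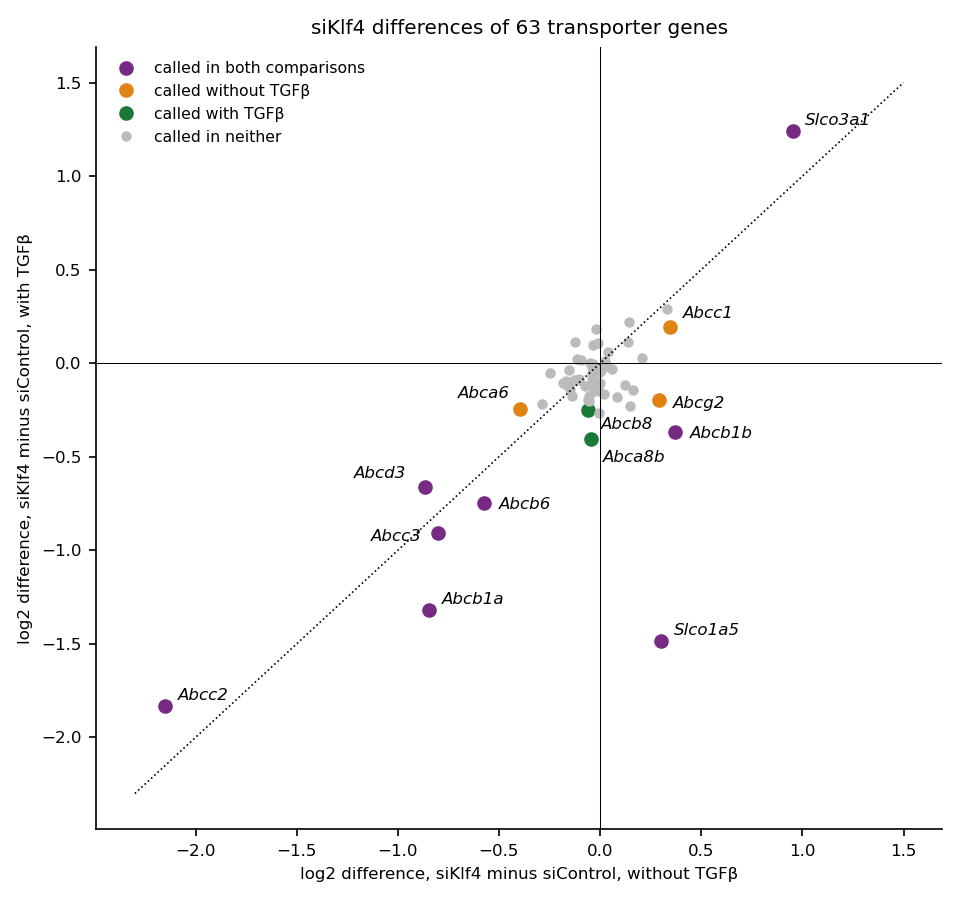
Log2 difference, arrays labelled siKlf4 minus siControl arrays, of each of the 63 transporter genes without TGFβ (x axis) and with TGFβ (y axis); colours show in which comparison the limma test was passed and the dotted line marks equal differences. Abcc2 sits lowest on both axes (-2.15 without and -1.83 with TGFβ), Slco3a1 highest on both, and Slco1a5 and Abcb1b lie right of 0 and below 0.

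The pumps that export drugs and conjugates had 6 of 11 members past the threshold in at least 1 of the siKlf4 comparisons (54.5%, beside 28.2% of all genes). In the arrays labelled siKlf4, 0 were higher and 4 lower with TGFβ (36.4%, beside 24.2% of all genes), and 3 were higher and 3 lower without TGFβ (54.5%, beside 19.7%), while 6 and 7 reached an unadjusted p under 0.05 in limma. Most of the 11 lay above the median gene, and of all genes above it 42.4% passed with TGFβ and 34.9% without. Abcc2 (MRP2), Abcc3 (MRP3) and Abcb1a (a P-glycoprotein) were lower in both settings. Abcc1 (MRP1), Abcb1b (the second P-glycoprotein) and Abcg2 (BCRP) passed as higher without TGFβ.

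Abcc2, which pumps bilirubin glucuronides and glutathione conjugates across the apical membrane of liver, gut and kidney epithelium, had the largest difference of any member. Its probe set (10463308) had log2 values of 6.41 and 6.52 in siKlf4 cells with TGFβ, against 8.31 and 8.28 in siControl cells with TGFβ. Without TGFβ it had 6.22 and 6.22 in siKlf4 cells, against 8.29 and 8.45 in siControl cells. All 4 arrays labelled siKlf4 lay below all 4 siControl arrays, with a gap wider than the spread of any pair. The log2 difference was -1.83 ± 0.09 (SE of the fit) with TGFβ, 3.56-fold lower (limma, adjusted p = 1.09e-06), and -2.15 ± 0.09 without TGFβ, 4.43-fold lower (adjusted p = 9.91e-07). A share of 0.953% of all genes with TGFβ and 0.426% without had a larger absolute difference. TGFβ itself gave log2 differences of 0.24 in siKlf4 cells and -0.07 in siControl cells, neither past the threshold (adjusted p = 0.114 and 0.691).

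Abcc3, the basolateral exporter of glucuronides and bile acids, had 6.92 and 7.03 in siKlf4 cells with TGFβ, against 7.91 and 7.85 in siControl cells with TGFβ. Without TGFβ the values were 7.32 and 7.39 in siKlf4 cells and 8.06 and 8.25 in siControl cells. The arrays labelled siKlf4 were again the lower pair in each setting, by -0.91 ± 0.09 with TGFβ (1.87-fold lower, adjusted p = 8.09e-05) and by -0.80 ± 0.09 without it (1.74-fold lower, adjusted p = 0.000245). TGFβ lowered Abcc3 in siKlf4 cells (-0.38, adjusted p = 0.0256), but this call was lost without either siKlf4 array with TGFβ (adjusted p = 0.181 and 0.079) or either siKlf4 array without TGFβ (0.0579 and 0.118). In siControl cells the TGFβ difference was -0.28 (adjusted p = 0.0904), and the 2 TGFβ differences were not shown to differ (interaction -0.10, adjusted p = 0.822).

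Abcc1, the widely expressed exporter of glutathione conjugates and leukotriene C4, passed in both TGFβ comparisons. It had 8.79 and 8.82 in siKlf4 cells with TGFβ, 8.65 and 8.56 in siControl cells with TGFβ, 9.36 and 9.46 in siKlf4 cells without TGFβ, and 9.06 and 9.06 in siControl cells without TGFβ. All 4 arrays with TGFβ lay below all 4 without. TGFβ lowered it by -0.60 ± 0.08 in siKlf4 cells (adjusted p = 0.00116) and by -0.45 ± 0.08 in siControl cells (adjusted p = 0.00631, and 0.0673 without siControl array 2 with TGFβ). In the arrays labelled siKlf4 it was higher without TGFβ (0.35 ± 0.08, adjusted p = 0.0131, and 0.0734 without siKlf4 array 2), while the difference of 0.20 with TGFβ did not pass (adjusted p = 0.121).

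**Figure D2:**
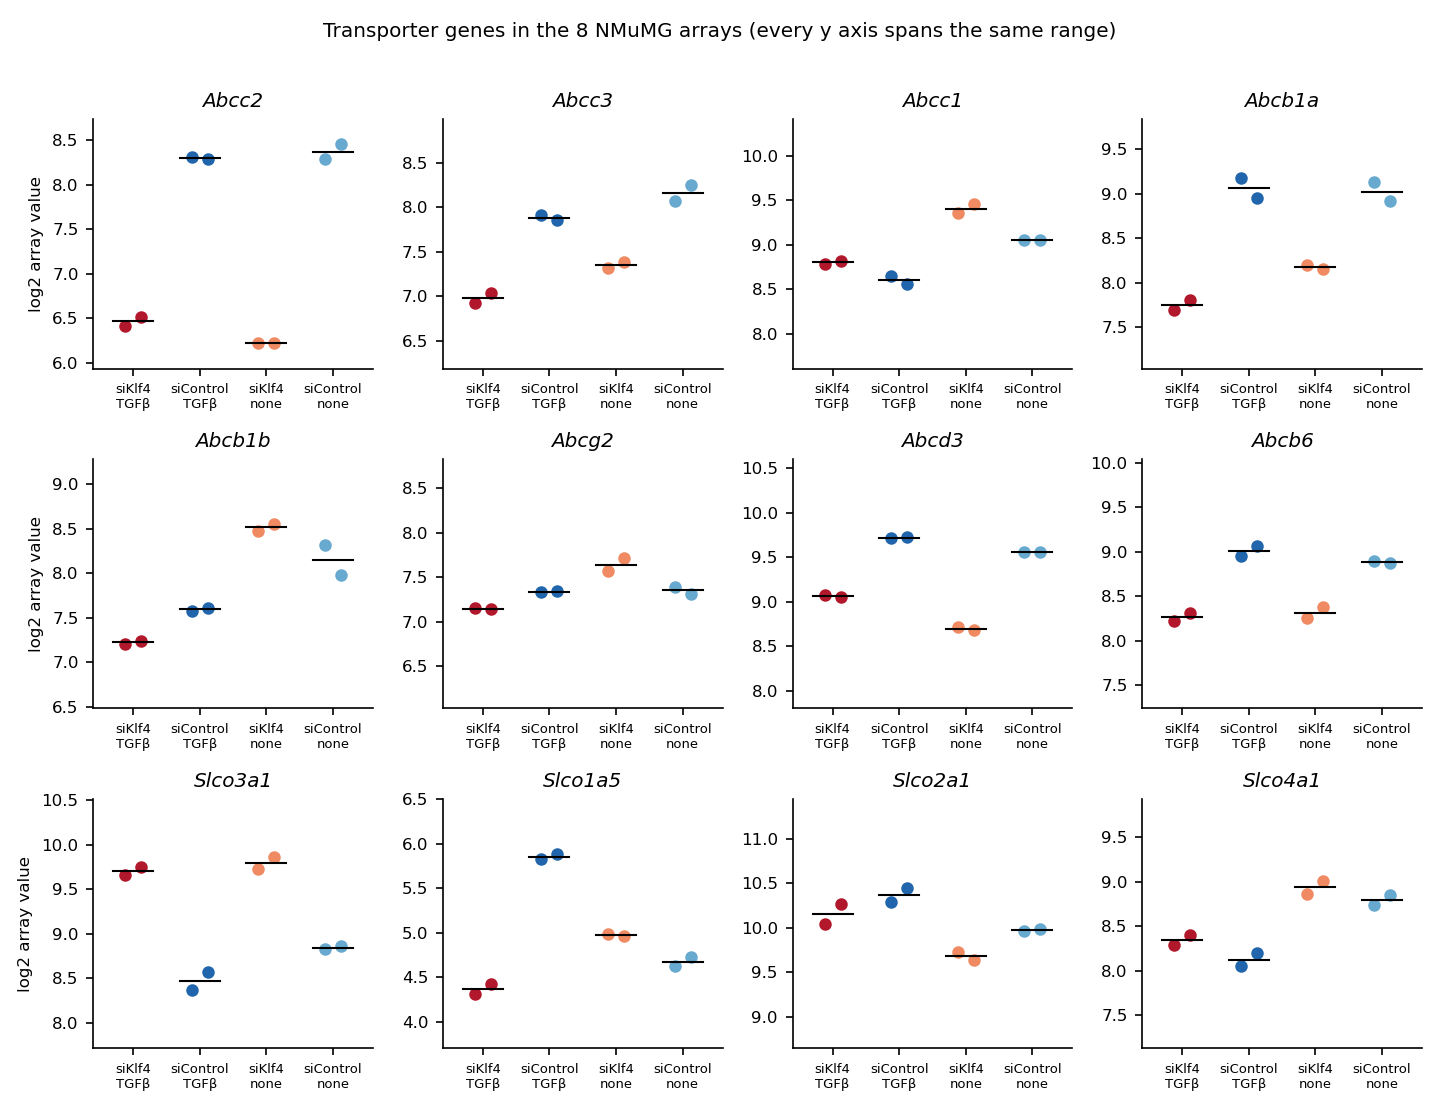
Log2 value of 12 transporter genes in each of the 8 arrays (points) with the mean of each pair (bar); columns run siKlf4 with TGFβ, siControl with TGFβ, siKlf4 without TGFβ, siControl without TGFβ, and every y axis spans the same range. Abcc2, Abcc3, Abcb1a, Abcd3 and Abcb6 are lower in both siKlf4 columns, Slco3a1 is higher in both, and the siControl column with TGFβ stands apart for Slco1a5.

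The rodent P-glycoprotein pair differed in sign without TGFβ. Abcb1a and Abcb1b both pump hydrophobic drugs out of the cell and lie next to each other, with Abcb4, on chromosome 5. They are close paralogs, so how far their probe sets share signal is uncertain. Abcb1a had 7.69 and 7.81 in siKlf4 cells with TGFβ, against 9.18 and 8.95 in siControl cells with TGFβ. Without TGFβ it had 8.20 and 8.15 in siKlf4 cells, against 9.13 and 8.92 in siControl cells. Both siKlf4 pairs lay below both siControl pairs. The log2 difference was -1.32 ± 0.11 with TGFβ (2.5-fold lower, adjusted p = 2.17e-05) and -0.85 ± 0.11 without (1.8-fold lower, adjusted p = 0.000491). TGFβ lowered Abcb1a in siKlf4 cells by -0.43 (adjusted p = 0.0313), a call lost without either siKlf4 array with TGFβ (0.196 and 0.0952) or without TGFβ (0.111 and 0.0944). In siControl cells the TGFβ difference was 0.04 (adjusted p = 0.864).

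Abcb1b had 7.21 and 7.24 in siKlf4 cells with TGFβ, against 7.57 and 7.61 in siControl cells with TGFβ. Without TGFβ it had 8.47 and 8.55 in siKlf4 cells, against 8.31 and 7.97 in siControl cells. The arrays labelled siKlf4 were thus the lower pair with TGFβ and the higher pair without it. The log2 differences were -0.37 ± 0.11 with TGFβ (adjusted p = 0.0379) and 0.37 ± 0.11 without (adjusted p = 0.0442). With TGFβ the call was lost without either siControl array with TGFβ (0.125 and 0.162) or either siKlf4 array with TGFβ (0.162 and 0.132). Without TGFβ it was lost without siControl array 2 (0.205), without either siKlf4 array (0.0871 and 0.17), and without any 1 array of the TGFβ groups (0.0725 to 0.0748). The interaction, which is the siKlf4 difference with TGFβ minus that without, was -0.74 ± 0.16 and missed the threshold (adjusted p = 0.0599), but it passed without siControl array 1 without TGFβ (-0.91, adjusted p = 0.0229) and under 4 other settings. TGFβ lowered Abcb1b in siKlf4 cells, where it fell by 1.29 (SE 0.11, 2.45-fold lower, adjusted p = 0.00014), and 0.381% of all genes had a larger absolute difference. In siControl cells it was -0.55 ± 0.11 (adjusted p = 0.0115), lost without siControl array 1 or 2 with TGFβ (0.0801 and 0.0653).

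Abcg2, the breast cancer resistance protein, had 7.15 and 7.14 in siKlf4 cells with TGFβ, 7.33 and 7.34 in siControl cells with TGFβ, 7.57 and 7.71 in siKlf4 cells without TGFβ, and 7.39 and 7.31 in siControl cells without TGFβ. The siKlf4 arrays without TGFβ were the highest pair and the siKlf4 arrays with TGFβ the lowest. TGFβ lowered Abcg2 in siKlf4 cells by -0.50 ± 0.08 (1.41-fold lower, adjusted p = 0.00429), whereas the difference in siControl cells was -0.01 (95% interval -0.20 to 0.18, adjusted p = 0.954). The interaction between them was -0.48 ± 0.12 (adjusted p = 0.0966). The siKlf4 difference was -0.19 with TGFβ (adjusted p = 0.138) and 0.29 ± 0.08 without it (adjusted p = 0.0379). The call without TGFβ was lost without either siControl array (0.0619 and 0.146), siKlf4 array 2 (0.182) or any 1 array with TGFβ (0.0701 to 0.0703).

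The other 5 exporters passed no test. Abcc4 (MRP4, a cyclic nucleotide and prostaglandin exporter), Abcc5, Abcc6, Abcc10 and Abcc12 had siKlf4 differences from -0.23 (Abcc12) to 0.10 (Abcc4) with TGFβ and from -0.18 (Abcc5) to 0.15 (Abcc12) without it. Abcc4 stood at 10.09 and 10.01 in siKlf4 cells with TGFβ, 9.97 and 9.94 in siControl cells with TGFβ, 9.86 and 9.88 in siKlf4 cells without TGFβ, and 9.95 and 9.86 in siControl cells without TGFβ. All 8 of its values thus lay between 9.86 and 10.09.

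Among ABC transporters of internal membranes, Abcb6 and Abcd3 were lower in the arrays labelled siKlf4 in both settings. Abcd3 (PMP70) carries branched and long-chain fatty acyl-CoA into peroxisomes. Its values were 9.07 and 9.05 in siKlf4 cells with TGFβ, 9.71 and 9.73 in siControl cells with TGFβ, 8.71 and 8.68 in siKlf4 cells without TGFβ, and 9.57 and 9.56 in siControl cells without TGFβ. The 2 arrays of each pair nearly coincided, and both siKlf4 pairs lay below both siControl pairs. The log2 difference was -0.66 ± 0.07 with TGFβ (1.58-fold lower, adjusted p = 0.00015) and -0.87 ± 0.07 without it (1.82-fold lower, adjusted p = 4.32e-05). TGFβ raised Abcd3 in siKlf4 cells (0.37, adjusted p = 0.0108), a call lost without siKlf4 array 2 without TGFβ (0.052) or either siKlf4 array with TGFβ (0.0846 and 0.0719). The TGFβ difference in siControl cells was 0.16 (adjusted p = 0.229).

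Abcb6, a porphyrin transporter of mitochondria and other membranes, had 8.22 and 8.31 in siKlf4 cells with TGFβ, against 8.95 and 9.06 in siControl cells with TGFβ. Without TGFβ it had 8.25 and 8.38 in siKlf4 cells, against 8.90 and 8.88 in siControl cells. All 4 arrays labelled siKlf4 lay below the 4 siControl arrays, by -0.74 ± 0.09 with TGFβ (adjusted p = 0.000181) and -0.57 ± 0.09 without (adjusted p = 0.0012). Its TGFβ difference was -0.05 in siKlf4 cells (adjusted p = 0.817) and 0.12 in siControl cells (adjusted p = 0.463). Abcb8, a mitochondrial inner membrane protein, had 7.67 and 7.72 in siKlf4 cells with TGFβ, 7.92 and 7.98 in siControl cells with TGFβ, 7.94 and 7.88 in siKlf4 cells without TGFβ, and 7.94 and 8.0 in siControl cells without TGFβ. It passed as lower in the arrays labelled siKlf4 with TGFβ (-0.25, adjusted p = 0.0428) and had -0.06 without (adjusted p = 0.708). Each of the 4 TGFβ arrays was needed for that call (adjusted p from 0.121 to 0.221 without 1 of them). Abcb10 and Abcb9, the lysosomal Abcd4 and the peroxisomal Abcd2 passed no test.

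The sterol and phospholipid carriers were mostly dim, and few passed. Of 18 members, 0 were higher and 1 lower on siKlf4-labelled arrays with TGFβ, and 0 higher and 1 lower without it (5.56% in each setting, beside 24.2% and 19.7% of all genes), with 3 and 2 at an unadjusted p under 0.05 in limma. The median log2 difference of the group was -0.07 with TGFβ and -0.04 without, beside -0.03 and 0.00 over all genes. Abca1, which loads cholesterol onto apolipoprotein A-I, had 3.81 and 3.96 in siKlf4 cells with TGFβ, 4.04 and 3.84 in siControl cells with TGFβ, 3.58 and 3.78 in siKlf4 cells without TGFβ, and 3.82 and 4.04 in siControl cells without TGFβ. Its pairs overlapped with TGFβ, and its siKlf4 differences were -0.05 (adjusted p = 0.812) with TGFβ and -0.25 without (adjusted p = 0.2). Abcg1, which exports cholesterol to high-density lipoprotein, had 5.74 and 5.41 in siKlf4 cells with TGFβ, 5.56 and 5.36 in siControl cells with TGFβ, 5.41 and 5.59 in siKlf4 cells without TGFβ, and 5.27 and 5.46 in siControl cells without TGFβ. Its groups overlapped throughout, with differences of 0.11 and 0.14 (adjusted p = 0.632 and 0.594).

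Abca6 was the member lower without TGFβ (-0.39 ± 0.08, adjusted p = 0.00781), with 3.13 and 3.08 in siKlf4 cells, against 3.53 and 3.47 in siControl cells. With TGFβ it had 3.12 and 2.99 in siKlf4 cells, against 3.32 and 3.28 in siControl cells (-0.24, adjusted p = 0.0631). All these values are far below the median gene. Abca8b, likewise dim, stood out in 1 group: it had 3.56 and 3.57 in siKlf4 cells with TGFβ, 3.95 and 3.99 in siControl cells with TGFβ, 3.62 and 3.45 in siKlf4 cells without TGFβ, and 3.57 and 3.59 in siControl cells without TGFβ. It was lower in the arrays labelled siKlf4 with TGFβ (-0.40, adjusted p = 0.00632, and 0.0534 without siControl array 2 with TGFβ). TGFβ raised it in siControl cells (0.39, adjusted p = 0.0163), and each of the 4 siControl arrays was needed for that call (0.0514 to 0.115 without 1 of them). Abca8a and Abca8b are close paralogs whose signals may mix.

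Abca2, a lysosomal and myelin lipid transporter, was the sterol and phospholipid carrier above the median gene that passed a test. It had 7.95 and 8.07 in siKlf4 cells with TGFβ, 7.66 and 7.78 in siControl cells with TGFβ, 7.78 and 7.54 in siKlf4 cells without TGFβ, and 7.37 and 7.28 in siControl cells without TGFβ. The siKlf4 arrays were the higher pair in each setting and the TGFβ arrays the higher pair in each background. Only the TGFβ difference in siControl cells passed (0.39 ± 0.10, adjusted p = 0.0399), and it was lost without any 1 of the 4 siControl arrays (0.0868 to 0.231) or either siKlf4 array with TGFβ (0.0644). The siKlf4 differences were 0.29 with TGFβ (adjusted p = 0.0784, and 0.0444 without either siKlf4 array without TGFβ) and 0.33 without (adjusted p = 0.0561, and 0.0236 without siKlf4 array 2). The TGFβ difference in siKlf4 cells was 0.35 (adjusted p = 0.0593, and 0.029 without siKlf4 array 1 without TGFβ).

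3 further roles held no call in any of the 5 comparisons, whereas 33.5% of all genes passed in at least 1. Of these roles, only the Abce and Abcf genes lay above the median gene. Abce1, Abcf1, Abcf2 and Abcf3, which act on ribosomes and move no cargo across membranes, had their largest siKlf4 differences at -0.17 (Abce1, with TGFβ) and -0.15 (Abcf1, without TGFβ). An unadjusted p under 0.05 was reached in these roles by 1 gene in 1 comparison, Abcf1 with TGFβ in siControl cells (-0.27, adjusted p = 0.058). The potassium channel subunits Abcc8 and Abcc9 and the 6 members in no role (Abca14, Abca15, Abca16, Abca17, Abcb5 and Abcg3) all lay below the median gene.

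Of the 15 Slco uptake carriers, 4 passed in at least 1 of the 5 comparisons (26.7%, beside 33.5% of all genes) and 11 in none. In the arrays labelled siKlf4, 1 was higher and 1 lower with TGFβ, and 2 were higher and 0 lower without it (13.3% in each setting, beside 24.2% and 19.7% of all genes), with 3 at an unadjusted p under 0.05 in limma in each setting. Slco3a1, a carrier of prostaglandins and thyroid hormone, had the largest rise of any member. It had 9.66 and 9.75 in siKlf4 cells with TGFβ, against 8.37 and 8.56 in siControl cells with TGFβ. Without TGFβ it had 9.73 and 9.86 in siKlf4 cells, against 8.83 and 8.86 in siControl cells. All 4 arrays labelled siKlf4 lay above all 4 siControl arrays. The log2 difference was 1.24 ± 0.09 with TGFβ (2.36-fold higher, adjusted p = 1.36e-05) and 0.95 ± 0.09 without (1.93-fold higher, adjusted p = 0.00011). TGFβ lowered Slco3a1 in siControl cells (-0.38, adjusted p = 0.031). That call was lost without either siControl array without TGFβ (0.0919 and 0.0973), siControl array 1 with TGFβ (0.229) or either siKlf4 array with TGFβ (0.056). In siKlf4 cells the TGFβ difference was -0.09 (adjusted p = 0.68).

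Slco1a5, an organic anion and bile acid carrier of rodents, was the only member whose siKlf4 difference depended on TGFβ by the interaction test. It had 4.32 and 4.42 in siKlf4 cells with TGFβ, against 5.83 and 5.89 in siControl cells with TGFβ. Without TGFβ it had 4.99 and 4.97 in siKlf4 cells, against 4.62 and 4.73 in siControl cells. The siControl pair with TGFβ was the highest and the siKlf4 pair with TGFβ the lowest. With TGFβ the arrays labelled siKlf4 were lower by -1.49 ± 0.08 (2.8-fold lower, adjusted p = 2.41e-06), and without TGFβ they were higher by 0.30 ± 0.08 (adjusted p = 0.0303). The second call was lost without siControl array 1 (0.136) or either siKlf4 array (0.0978 and 0.0823) without TGFβ, or either siControl array with TGFβ (0.0553). TGFβ lowered Slco1a5 in siKlf4 cells by -0.61 ± 0.08 (1.52-fold lower, adjusted p = 0.00139) and raised it in siControl cells by 1.18 ± 0.08 (2.27-fold higher, adjusted p = 0.000102). The interaction was -1.79 ± 0.12 (adjusted p = 0.00152) and held without each array in turn, and 0.0351% of all genes had a larger one. It did not pass with an unmoderated linear model (adjusted p = 0.0656). Its level lies below the median gene on every siKlf4 array and on the siControl arrays without TGFβ, and the Slco1a genes are close paralogs, so signal from a paralog cannot be told apart. Its 3 paralogs Slco1a1, Slco1a4 and Slco1a6 lay between 2.73 and 3.39 on all arrays and passed no test.

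**Figure D3:**
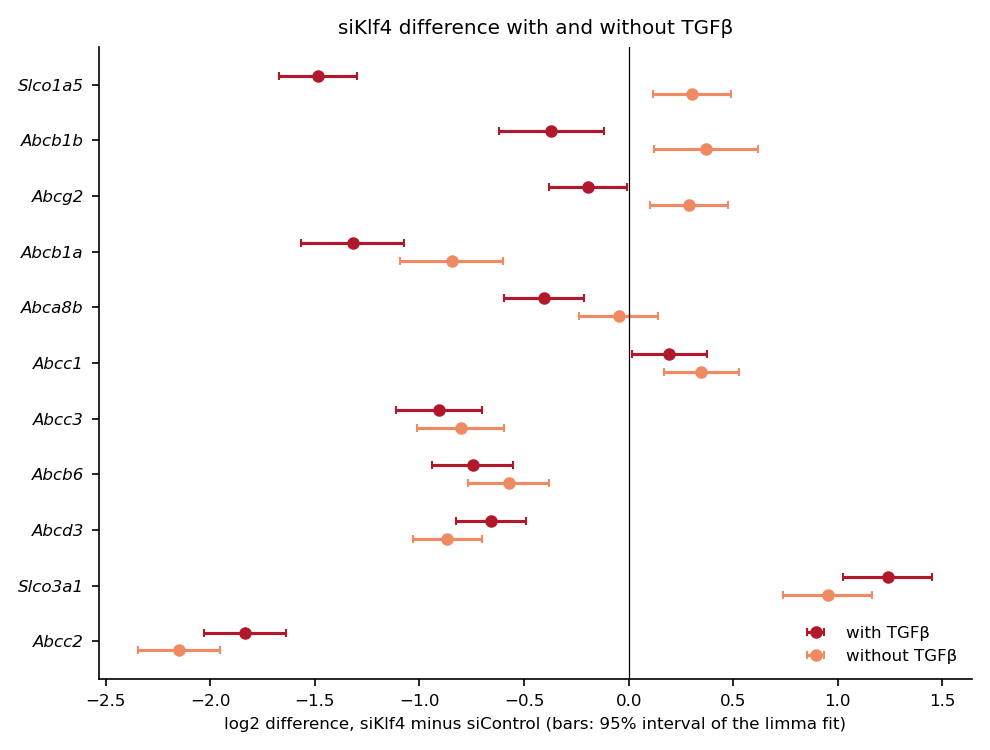
Log2 difference, arrays labelled siKlf4 minus siControl arrays, with TGFβ (dark red) and without TGFβ (orange) for 11 transporter genes, with 95% intervals of the limma fit. The 2 intervals lie on opposite sides of 0 for Slco1a5 (-1.49 and 0.30), Abcb1b (-0.37 and 0.37) and Abcg2 (-0.19 and 0.29), and only for Slco1a5 did the interaction pass the threshold.

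The 2 remaining Slco genes passed for TGFβ and not for the siKlf4 label. Slco4a1, a thyroid hormone carrier, had 8.29 and 8.40 in siKlf4 cells with TGFβ, 8.05 and 8.20 in siControl cells with TGFβ, 8.86 and 9.01 in siKlf4 cells without TGFβ, and 8.74 and 8.85 in siControl cells without TGFβ. All 4 arrays with TGFβ lay below all 4 without it. It fell by 0.59 in siKlf4 cells (SE 0.10, adjusted p = 0.00359) and by 0.67 in siControl cells (SE 0.10, adjusted p = 0.0023), and its siKlf4 differences of 0.22 with TGFβ and 0.14 without did not pass (adjusted p = 0.142 and 0.404).

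Slco2a1, the prostaglandin transporter that clears prostaglandin E2, moved the other way. It had 10.04 and 10.26 in siKlf4 cells with TGFβ, 10.28 and 10.45 in siControl cells with TGFβ, 9.73 and 9.64 in siKlf4 cells without TGFβ, and 9.96 and 9.99 in siControl cells without TGFβ. Within each background the TGFβ pair was the higher. TGFβ raised it by 0.47 ± 0.10 in siKlf4 cells (adjusted p = 0.0153), lost without siKlf4 array 2 with TGFβ (0.138) or without TGFβ (0.0873). It raised it by 0.39 ± 0.10 in siControl cells (adjusted p = 0.0343), lost without any 1 of the 4 siControl arrays (0.0706 to 0.231). The siKlf4 differences were -0.22 with TGFβ and -0.29 without, which did not pass (adjusted p = 0.176 and 0.0825). The 11 other Slco genes, among them the liver carrier Slco1b2 and the brain thyroxine carrier Slco1c1, lay at mean log2 values between 2.88 and 4.08.

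Over the members as a whole, TGFβ raised 2 and lowered 7 in siKlf4 cells (14.3%, beside 12.9% of all genes, 6.01% higher and 6.87% lower) and raised 4 and lowered 4 in siControl cells (12.7%, beside 12.5% of all genes, 5.81% higher and 6.65% lower). The 2 raised in siKlf4 cells became 0 without siKlf4 array 2 of either setting and 1 without siKlf4 array 1 with TGFβ. In siControl cells the 4 raised became 1 or 2 without any 1 of the 4 siControl arrays, and the 4 lowered became 2 without either siControl array with TGFβ. The median log2 difference was -0.05 in siKlf4 cells and 0.01 in siControl cells, beside -0.02 and 0.02 over all genes. An unadjusted p under 0.05 was reached by 14 members in siKlf4 cells and 13 in siControl cells. Of the 11 drug and conjugate exporters, 0 rose and 5 fell with TGFβ in siKlf4 cells (Abcb1b, Abcc1, Abcg2, Abcb1a and Abcc3, 45.5% beside 12.9% of all genes), and 0 rose and 2 fell in siControl cells (Abcb1b and Abcc1, 18.2% beside 12.5%), with 7 and 4 at an unadjusted p under 0.05 in limma. Most of these exporters lay above the median gene, where 24% of genes passed in siKlf4 cells and 22.5% in siControl cells. The TGFβ comparisons share arrays with the siKlf4 comparisons, so the same array enters both. The interaction passed for 1 member, with a negative sign (1.59%, beside 1.52% of all genes, 0.978% of them negative), and 7 reached an unadjusted p under 0.05. Without siControl array 1 without TGFβ it passed for 2, Slco1a5 and Abcb1b. Of the 25 members above the median gene, 0 passed the interaction, beside 2.59% of genes above the median, and 4 reached an unadjusted p under 0.05 in limma. With TGFβ against none, 8 of these 25 passed in siKlf4 cells (32%, beside 24% of such genes) and 6 in siControl cells (24%, beside 22.5%).

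Abcc2 was taken as the anchor for likeness of pattern, because its difference without TGFβ was the largest. Over the 8 arrays, which share 4 groups, the members most like it were Abcb6 (r = 0.968), Abcd3 (0.956), Abcb1a (0.921), Abcc3 (0.906) and Abca6 (0.876). Slco3a1 was the most opposed (r = -0.957). These are descriptions, since the arrays fall into clusters by group.

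Genes around the transporters were read from lists of the same pathway. Of 22 listed transcriptional regulators of transporter genes, 18 were measured. With TGFβ, 1 was higher and 7 lower on siKlf4-labelled arrays, and without TGFβ 3 were higher and 5 lower. These are 44.4% of the measured list in each comparison, beside 24.2% and 19.7% of all genes. Of all genes above the median gene, 42.4% passed with TGFβ and 34.9% without. Hnf4a, a nuclear receptor of liver and gut epithelium that drives many transporter genes, had 8.25 and 8.42 in siKlf4 cells with TGFβ, 9.70 and 9.67 in siControl cells with TGFβ, 8.21 and 8.01 in siKlf4 cells without TGFβ, and 9.48 and 9.34 in siControl cells without TGFβ. All 4 arrays labelled siKlf4 were lower, by -1.35 with TGFβ (adjusted p = 1.3e-05) and -1.29 without (adjusted p = 2.94e-05).

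Nfe2l2 (Nrf2), which acts at antioxidant response elements, had 8.60 and 8.53 in siKlf4 cells with TGFβ, 9.41 and 9.34 in siControl cells with TGFβ, 8.77 and 8.64 in siKlf4 cells without TGFβ, and 9.39 and 9.11 in siControl cells without TGFβ. It was lower in the arrays labelled siKlf4 by -0.80 with TGFβ (adjusted p = 0.000433) and -0.54 without (adjusted p = 0.00568). Its inhibitor Keap1 was lower too (-0.51 with TGFβ, adjusted p = 0.00134, and -0.68 without, adjusted p = 0.000296). The liver X receptor Nr1h3, which drives Abca1 and Abcg1, was lower by -0.55 with TGFβ (adjusted p = 0.00151) and -0.64 without (adjusted p = 0.000785). Its targets Abca1 and Abcg1 passed no test, but both averaged below the median gene, where probe sets rarely passed. Ahr, the dioxin receptor, was higher by 0.74 with TGFβ (adjusted p = 0.000105) and 0.64 without (adjusted p = 0.000365), and TGFβ raised it by 0.77 in siKlf4 cells (adjusted p = 0.000295) and 0.67 in siControl cells (adjusted p = 0.000842).

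The sterol regulators Srebf1 and Srebf2 were lower with TGFβ in the arrays labelled siKlf4 (-0.61, adjusted p = 0.000443, and -0.45, adjusted p = 0.00362). Without TGFβ, Srebf1 had -0.28 (adjusted p = 0.039), a call lost without either siControl array (0.0653 and 0.145), siKlf4 array 1 (0.158) or any 1 array with TGFβ (0.0693 to 0.0728). The pregnane X receptor Nr1i2 and the constitutive androstane receptor Nr1i3, the main drug sensors of liver, were dim (mean log2 4.15 and 4.08) and passed no test. TGFβ lowered the Ahr partner Arnt by -0.56 in siKlf4 cells (adjusted p = 0.00182) and -0.67 in siControl cells (adjusted p = 0.000987). Without TGFβ, Nr1h4 (0.42, limma adjusted p = 0.0221) and Rxra (0.41, adjusted p = 0.0154) were higher in the arrays labelled siKlf4. Each of these calls was lost in 3 of the runs that left out 1 array. Whether any regulator has a part in the transporter differences was not tested.

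**Figure D4:**
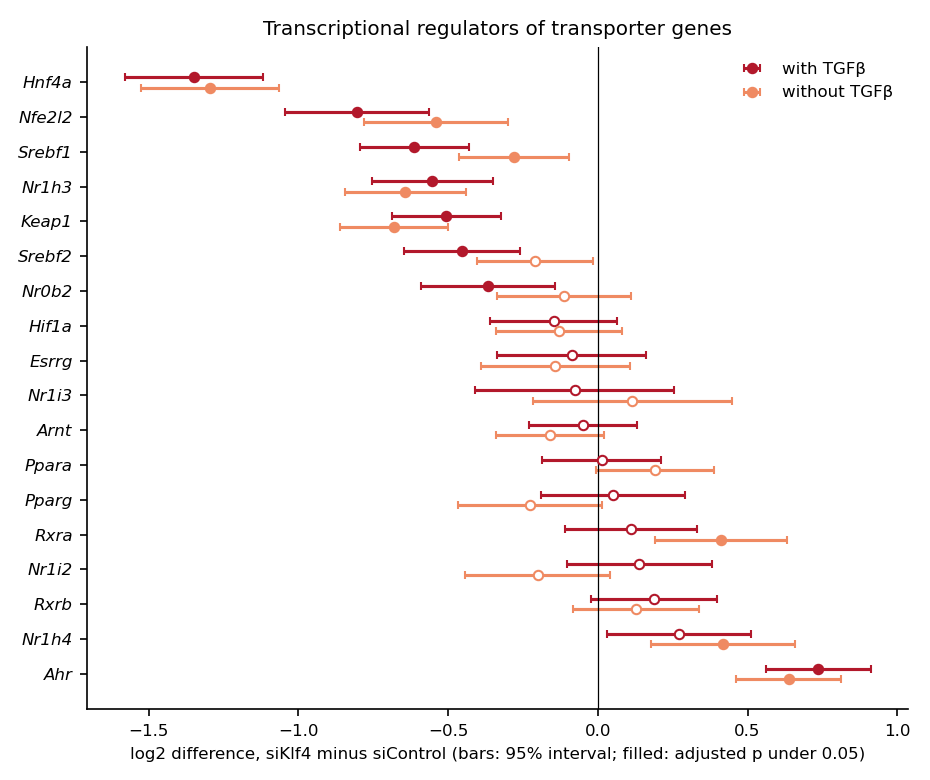
Log2 difference, arrays labelled siKlf4 minus siControl arrays, with TGFβ (dark red) and without TGFβ (orange) for 18 transcriptional regulators of transporter genes, with 95% intervals of the limma fit; filled points passed an adjusted p of 0.05. Hnf4a is farthest to the left (-1.35 and -1.29) and Ahr farthest to the right (0.74 and 0.64).

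Of 20 other organic ion and bile acid carriers 18 were measured, and 0 were higher and 5 lower on siKlf4-labelled arrays with TGFβ, and 0 were higher and 3 lower without (27.8% and 16.7%, beside 24.2% and 19.7% of all genes), with 6 and 4 at an unadjusted p under 0.05 in limma. The monocarboxylate carrier Slc16a1 (MCT1), which moves lactate, had 8.06 and 8.37 in siKlf4 cells with TGFβ, 9.81 and 9.95 in siControl cells with TGFβ, 9.49 and 9.50 in siKlf4 cells without TGFβ, and 10.36 and 10.29 in siControl cells without TGFβ. It was lower by -1.67 with TGFβ (adjusted p = 5.95e-06) and by -0.84 without (adjusted p = 0.000557). The ileal bile acid carrier Slc10a2 was lower by -0.85 (adjusted p = 0.0024) and -0.97 (adjusted p = 0.00141), at values below the median gene, and Slc22a18 by -0.44 (adjusted p = 0.00204) and -0.40 (adjusted p = 0.00407). Slc2a9, a urate carrier, passed with TGFβ (-0.53, adjusted p = 0.00255). The drug and cation antiporter Slc47a1 also did (-0.48, adjusted p = 0.0263), a call lost without any 1 of the 4 TGFβ arrays (0.0794 to 0.147).

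Of 12 lipid acceptors and sterol handling partners 10 were measured, and 3 were higher and 1 lower on siKlf4-labelled arrays with TGFβ, and 3 were higher and 0 lower without (40% and 30%, beside 24.2% and 19.7% of all genes), with 5 at an unadjusted p under 0.05 in limma in each setting. Among genes above the median gene the shares were 42.4% and 34.9%. The lysosomal cholesterol exporters Npc1 and Npc2 were higher in the arrays labelled siKlf4 in both settings, Npc1 by 0.56 with TGFβ (adjusted p = 0.000782) and 0.51 without (adjusted p = 0.00172), and Npc2 by 0.51 (adjusted p = 0.00107) and 0.42 (adjusted p = 0.00407). The phospholipid transfer protein Pltp was lower with TGFβ (-0.69, adjusted p = 0.00149) and had -0.07 without (adjusted p = 0.758). Cftr, Tap1 and Tap2, ABC genes outside the symbol rule, passed no test.

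Of the markers of other cell types, 2 of 5 basal (40%) and 1 of 5 fibroblast markers (20%) passed in each siKlf4 comparison. Of 4 measured leukocyte markers, 1 passed with TGFβ (25%) and 0 without. No adipocyte or endothelial marker passed. Over all genes 24.2% passed with TGFβ and 19.7% without. Acta2, of myoepithelium and of mesenchymal cells, was higher by 2.21 with TGFβ and 1.86 without (adjusted p = 2.73e-06 and 1.25e-05), and basal Krt5 was lower by -0.81 and -0.71 (adjusted p = 0.00758 and 0.0173), while the other 3 basal markers passed no test. The 5 basal markers averaged between 5.34 and 5.43 in siKlf4 cells with TGFβ, 4.98 and 5.15 in siControl cells with TGFβ, 5.27 and 5.40 in siKlf4 cells without TGFβ, and 5.06 and 5.12 in siControl cells without TGFβ. Col1a1 was the 1 fibroblast marker of 5 that passed (0.65 with TGFβ and 1.13 without, adjusted p = 0.00639 and 0.000323), and the defining markers Dcn and Lum averaged 3.11 and 2.83. The 5 fibroblast markers averaged between 4.70 and 4.87 in siKlf4 cells with TGFβ, 4.61 and 4.66 in siControl cells with TGFβ, 4.83 and 4.92 in siKlf4 cells without TGFβ, and 4.54 and 4.67 in siControl cells without TGFβ. Of the 7 luminal markers, 2 passed as higher and 1 as lower in each siKlf4 comparison (42.9%), and 4 did not pass. Among them, Krt8 (0.36 with TGFβ and 0.30 without) and Krt18 (0.55 and 0.54) were higher and Krt19 (-1.04 and -0.99) lower in the arrays labelled siKlf4. The leukocyte marker Cd68 was higher in the arrays labelled siKlf4 by 0.61 with TGFβ (adjusted p = 0.0106), while Ptprc and Itgam averaged 3.74 and 3.95. The part of these changes in the transporter differences was not tested.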

How the data were processed

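Groups, dose and days came from the submitters' labels. The authors normalized the arrays by Robust Multi-array Average (RMA), with oligo 1.14.0 listed in the submitters' processing notes. The deposited table gives 1 log2 value per probe set and array; the base was read from their range, and the RMA settings and annotation are not given in the sources used here. RMA makes array distributions alike, so a change shared by most genes would not be seen. Arrays hold no counts, and their number limits the precision.

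Of 34760 probe sets, 21640 had 1 gene symbol in the platform annotation, 1321 had several and 11799 were not listed. The probe set with the highest mean was kept per gene. All 63 members matched a RefSeq gene by Entrez ID, with 0 symbols changed. R 4.3.3 and limma 3.58.1 fitted 1 mean per group over all 8 arrays, with eBayes (4 residual and 4.93 prior degrees of freedom) and Benjamini-Hochberg adjustment over 19937 genes at 0.05. The 5 contrasts were siKlf4 against siControl with and without TGFβ, TGFβ against none in each background, and the interaction. The fit was tested on simulated data. The methods' one-way analysis of variance was run as an unmoderated linear model with the same contrasts.

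The members and gene lists were chosen with earlier results of these data known. Members with values in every array were the largest called differences of each contrast (12 per siKlf4 contrast, 8 per TGFβ contrast, all in the interaction) plus Abcb1a, Abcb1b, Abcc1, Abcg2, Abca1 and Abcg1. Abcb8 and others were named as examples of their role. Each count was recomputed under 16 other settings, 8 of them leaving out 1 array, and under 1 chosen after seeing the data.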

Additional observations from a re-analysis of the deposited data

Results flagged for a closer look

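The siKlf4 difference of 2 genes depended on TGFβ by the limma interaction test. For Slco1a5 the difference of arrays labelled siKlf4 from siControl arrays was -1.49 with TGFβ and 0.30 without, an interaction of -1.79 (adjusted p = 0.00152). It kept its call without each array in turn. For the lactate carrier Slc16a1 the differences were -1.67 with TGFβ and -0.84 without, an interaction of -0.83 (adjusted p = 0.0376). That call was lost without any 1 of the 8 arrays (adjusted p from 0.0554 to 0.164), although Slc16a1 was the lower pair in the arrays labelled siKlf4 in both settings. Groups of 2 arrays are too small to test 1 array against the others of its group.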

How the results depend on the processing

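No called value changed sign under any alternative run. Only leaving out an array, quantile normalization or averaging the probe sets of a gene could change a log2 difference. The other settings kept the same group means, so no sign could change there. Of 39 calls of the named members, 21 were kept under every alternative that tested them and 22 without each array in turn. The replicate numbers were not shown to pair the arrays: same-numbered arrays deviated together between siKlf4 and siControl without TGFβ (r = 0.382), but the other 5 pairs of groups gave r from -0.0503 to 0.0383. With the replicate number as a block, the members called higher and lower were 1 and 9 with TGFβ, 4 and 6 without TGFβ, 2 and 7 for TGFβ in siKlf4 cells, 3 and 4 for TGFβ in siControl cells and 0 and 1 for the interaction, and the calls of Abcb1b without TGFβ (adjusted p = 0.0542) and of Abca2 with TGFβ in siControl cells (0.0519) were lost.

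Members higher in the arrays labelled siKlf4 with TGFβ (1) became 2 with only the 4 arrays compared and 3 with trend and robust options or with only genes above the median gene, a filter chosen after seeing the data. Those higher without TGFβ (5) became 1 with the 4 arrays, 3 without moderation and 1 at an adjusted p under 0.01. Those raised by TGFβ in siControl cells (4) became 1 at 0.01 and 2 with genes above the median, and those lowered (4) became 2 at 0.01. Those raised in siKlf4 cells (2) became 4 with trend and robust options, 0 at 0.01 and 4 with genes above the median. Those lower by the interaction (1) became 3 with trend and robust options, 0 without moderation, and 2 with quantile normalization, without the dimmest 30% of genes, or with genes above the median. The filter on genes above the median did not test Slco1a5 or Abca8b, which average below it, so their calls were not lost there. The 2 interaction calls under that filter were Abcb1b (limma, adjusted p = 0.0227) and Abcg2 (0.0294). Without moderation 11 calls of named members were lost, with adjusted p from 0.0533 to 0.157: Abcb1b in both siKlf4 comparisons and for TGFβ in siControl cells, Abcg2 without TGFβ, Abcb1a and Abcc3 for TGFβ in siKlf4 cells, Slco2a1 for TGFβ in both backgrounds, Abca2 and Slco3a1 for TGFβ in siControl cells, and the interaction of Slco1a5. The cause was not tested.

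Leaving out 1 array gave 1 to 2 members higher and 6 to 9 lower with TGFβ, 2 to 3 and 6 to 6 without TGFβ, 0 to 3 and 5 to 7 for TGFβ in siKlf4 cells, 1 to 4 and 2 to 4 in siControl cells, and 0 to 0 and 1 to 2 for the interaction. There, the spread of a lone remaining array is borrowed from the other groups. Dim genes and 2 arrays per group limit what can be seen.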

Other observations

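Several members lie next to each other in the RefSeq gene order. On chromosome 5, Abcb1a and Abcb1b, both lower in the arrays labelled siKlf4 with TGFβ, are followed by Abcb4, the phosphatidylcholine floppase of bile, which had 4.16 and 4.23 in siKlf4 cells with TGFβ, 3.92 and 4.41 in siControl cells with TGFβ, 4.39 and 4.5 in siKlf4 cells without TGFβ, and 4.08 and 4.40 in siControl cells without TGFβ. Its arrays overlapped with TGFβ, and its siKlf4 differences were 0.03 with TGFβ and 0.20 without (limma, adjusted p = 0.94 and 0.482). On chromosome 11, the run Abca8b, Abca8a, Abca9, Abca6 and Abca5 held 2 genes with a call, Abca8b and Abca6, while Abca8a, Abca9 and Abca5 had siKlf4 differences of -0.03, -0.12 and -0.17 with TGFβ and 0.01, -0.07 and -0.05 without, none past the threshold. All 5 genes of the run had a negative siKlf4 difference with TGFβ, as did 48 of the 63 members and 11274 of the 19937 genes. On chromosome 6, Slco1a6 beside Slco1a5 had 3.10 and 3.13 in siKlf4 cells with TGFβ and 3.07 and 3.39 in siControl cells with TGFβ, a difference of -0.12 (adjusted p = 0.525), against -1.49 for Slco1a5. Whether neighbours differ from each other was not tested.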
